A study of Mus musculus with 25 samples.

Results

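The 10 genes described here encode transcription factors of the basic helix-loop-helix PAS (bHLH-PAS) family. They are *Sim1*, *Sim2*, *Hif1a*, *Epas1*, *Hif3a*, *Arnt*, *Arnt2*, *Ahr*, *Ahrr* and *Npas4*, found by symbol among the 52636 genes of the count table of mouse *soleus*. All 10 were in the table, and 9 passed the filter on low counts, which kept 16340 genes in all. *Npas4* did not pass. The family was assembled round *Sim2*, whose difference between genotypes in these data was already known, so levels by genotype are given as a description without a test.

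RNA was sequenced from the *soleus* of 25 C57BL/6 mice of 12 weeks, 1 library per mouse. WT mice carried floxed *Dnmt3a* alleles on both chromosomes and no Cre. mD3AKO mice carried the same floxed alleles, with loxP sites round exon 19, together with Cre under the muscle creatine kinase promoter (mCK-Cre). This promoter turns on only late as muscle matures. For the *Dnmt3a* RNA left in mD3AKO muscle, the authors propose satellite cells and cells other than muscle as the source. Which cells kept *Dnmt3a* was not measured here. At rest, after a sham treadmill, 5 WT mice (2 females, 3 males) and 7 mD3AKO mice (3 females, 4 males) were killed. The other mice ran on a treadmill for 30 minutes and were killed 60 minutes later, 7 of them WT (4 females, 3 males) and 6 mD3AKO (3 females, 3 males).

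Between 22671457 and 37431801 reads were counted per library (median 32189360), and levels are given as CPM, a gene's counts scaled to a common library total, of which 1 CPM rests on about 32.2 reads. The deleted gene separated the labels, with *Dnmt3a* between 93.4 and 130.5 CPM in WT mice and between 34.5 and 53.9 CPM in mD3AKO mice. In 1 library, that of mouse 15 (a rested mD3AKO male), 3 genes of ribosomal RNA took 39.5% of the counts, and in the remaining libraries they took 7.75% to 13.0%. The table counts whole muscle, so fewer cells of a type and less RNA per cell cannot be told apart.

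bHLH-PAS factors work as pairs. A regulated partner (HIF-1α from *Hif1a*, HIF-2α from *Epas1*, HIF-3α from *Hif3a*, the aryl hydrocarbon receptor from *Ahr*, or SIM1 and SIM2) binds a shared partner, ARNT or ARNT2, and the pair binds short DNA elements. HIF α subunits are hydroxylated by the EGLN enzymes when oxygen is present and then degraded through VHL, whereas AHR waits in the cytoplasm with a chaperone complex until it binds a ligand. Both are therefore controlled largely at the protein level, which RNA counts do not measure.

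Promoter sequence was drawn on because the HIF and AHR pairs recognise elements with a core of ACGTG or GCGTG, and because members are themselves among the genes such factors can act on. The RefSeq promoter table (GRCm38.p6, the same chromosomes as mm10) held 7 of the 10 members. It had no entry for *Sim2*, *Epas1* or *Ahr*. The 250 bases before the RefSeq transcript start of *Hif3a*, the member that rose after exercise, of *Ahrr*, the repressor of AHR and one of its known targets, and of *Hif1a*, the subunit named for hypoxia, are shown 5′ to 3′ on the gene's strand. The *Hif1a* window precedes a RefSeq start that lies inside the span of the counted gene (chr12:73901375-73947530), so it is not the stretch before the first base of that gene, and it holds 0 bases of its counted exons. Capitals mark ACGTG or GCGTG on either strand, the latter read as CACGT or CACGC.

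*Hif3a*, reverse strand, chr7:17062428-17062677: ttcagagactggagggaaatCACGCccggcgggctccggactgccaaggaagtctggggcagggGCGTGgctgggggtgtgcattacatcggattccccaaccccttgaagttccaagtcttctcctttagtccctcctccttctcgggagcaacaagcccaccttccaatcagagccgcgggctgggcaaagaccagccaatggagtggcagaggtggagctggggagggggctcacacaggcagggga

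*Ahrr*, reverse strand, chr13:74292332-74292581: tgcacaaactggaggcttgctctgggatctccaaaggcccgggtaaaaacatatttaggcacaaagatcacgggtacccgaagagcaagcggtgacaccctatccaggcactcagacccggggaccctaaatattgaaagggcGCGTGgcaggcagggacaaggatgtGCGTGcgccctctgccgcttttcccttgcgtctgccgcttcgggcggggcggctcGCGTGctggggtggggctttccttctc

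*Hif1a*, forward strand, chr12:73907617-73907866: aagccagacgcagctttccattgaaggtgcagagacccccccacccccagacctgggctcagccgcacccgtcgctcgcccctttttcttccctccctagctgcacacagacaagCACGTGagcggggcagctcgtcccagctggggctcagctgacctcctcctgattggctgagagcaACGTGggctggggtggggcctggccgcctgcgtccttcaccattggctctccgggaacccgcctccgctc

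The *Hif3a* window held GCGTG 2 times and ACGTG 0 times, and the *Ahrr* window held GCGTG 3 times. In the *Hif1a* window ACGTG was counted 3 times, with the palindrome CACGTG counted once on each strand. The windows of the other 4 members in the table, which are not shown, held fewer, with GCGTG 1 time each for *Arnt* and *Npas4*, and neither core for *Sim1* and *Arnt2*. The 3 windows shown are thus those with the most matches, and 5 of the 7 held at least 1. The windows of *Sim1*, *Arnt2* and *Arnt* hold 178, 138 and 2 bases of counted exons, so they too reach into the span of the counted gene. Of all 32851 promoters in the table, windows of the same length held ACGTG in 16.6%, GCGTG in 28.2% and either of them in 38.6%. These letters are a description of the windows and not evidence of binding. CG, the pair of bases that DNMT3A methylates, occurred 9 times in the *Hif3a* window, 17 times in that of *Ahrr* and 14 times in that of *Hif1a*, against a median of 6 over all promoters.

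Per kb of exon length, *Epas1* had the highest level of the 10 genes, at 24.2 ± 3.65 CPM per kb (SD, n = 25). *Sim2* followed at 11.6 ± 3.07 CPM per kb, and it lay under *Epas1* and above *Arnt* in all 25 libraries. *Arnt* (6.39 ± 0.586 CPM per kb) and *Hif1a* (6.01 ± 0.620 CPM per kb) were neighbours whose ranges overlapped, with *Arnt* the higher of them in 22 of 25 libraries. *Epas1* was above both of them in every library.

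A further step down, *Sim1* had 1.66 ± 0.226 CPM per kb and *Ahr* 0.902 ± 0.398 CPM per kb, with *Sim1* the higher in 24 libraries. *Arnt2*, the paralog of *Arnt* known mainly from the nervous system, had 0.275 ± 0.0671 CPM per kb. *Hif3a* (0.0939 ± 0.0617 CPM per kb) lay above *Ahrr* (0.0273 ± 0.0104 CPM per kb) in 20 of 25 libraries, and the ranges of these neighbours overlapped. These levels pool the 4 groups, so their SDs include differences between groups. *Hif3a* alone was at 0.0412 ± 0.0244 CPM per kb at rest (SD, n = 12) and 0.143 ± 0.0414 CPM per kb after exercise (SD, n = 13). The *soleus* held RNA of both SIM genes, and of the shared partners *Arnt* was the more abundant in every library.

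**Figure D1:**
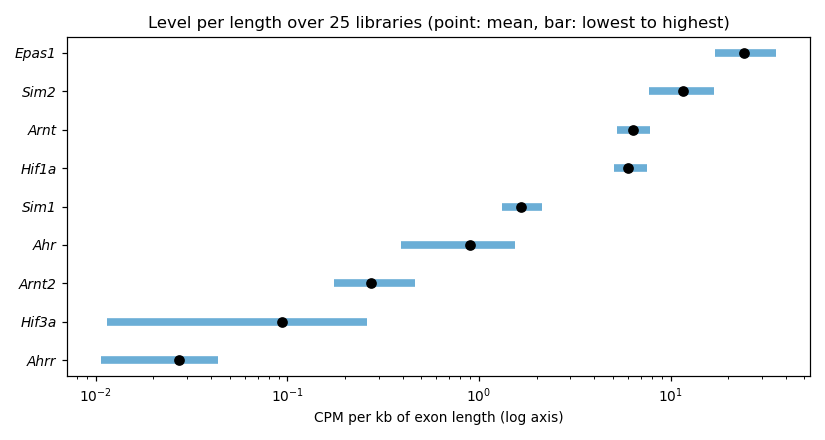
Level of the 9 tested bHLH-PAS genes in CPM per kb of exon length, on a log axis, with the mean (point) and the range (bar) over 25 libraries. *Epas1* and *Sim2* lead, *Arnt* and *Hif1a* overlap, and *Hif3a* and *Ahrr* are lowest.

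*Npas4*, an activity-dependent factor of neurons, was barely detected. It had 22 reads in all 25 libraries together, 0 in 11 of them and at most 6, in an exercised mD3AKO male (mouse 19). A count of 0 allows up to 3 counts, which is 0.0755 to 0.210 CPM depending on the library, and the 6 reads gave 0.204 CPM. No change after exercise was detectable at this depth.

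*Sim2* (ENSMUSG00000062713, mm10 chr16:94085260-94127032, forward strand) encodes a factor studied mostly as a repressor in development. In WT mice at rest its level was 28.6, 29.3, 30.6, 35.1 and 36.1 CPM, and after exercise it ran from 28.5 through a median of 33.3 to 37.9 CPM (n = 7). In mD3AKO mice it ran from 37.5 through 54.4 to 61.7 CPM at rest (n = 7) and from 44.1 through 49.8 to 61.0 CPM after exercise (n = 6). Of the 13 mD3AKO mice, 12 lay above every WT mouse, and the remaining one, a rested female (mouse 21, 37.5 CPM), lay just under the highest WT mouse, an exercised male (mouse 16, 37.9 CPM). Every mD3AKO library lay above every WT library in 0.0428% of the tested genes, and *Sim2* was not one of them.

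The means were 32.6 ± 3.07 CPM in WT (SD, n = 12) and 51.5 ± 7.61 CPM in mD3AKO mice (SD, n = 13), a log2 difference of 0.66 (SE 0.0742) or 1.58-fold. It was 0.70 (SE 0.109) at rest and 0.63 (SE 0.101) after exercise. Since this contrast is the one the family was chosen by, and 0.269% of the 16340 tested genes were called in it, no p is given. Without mouse 15, the rested mD3AKO mean was 50.4 ± 8.80 CPM (SD, n = 6), against 52.0 ± 9.10 with it.

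The spread of *Sim2* was wider in mD3AKO than in WT mice. Its highest value, 61.7 CPM, came from mouse 15, the library with the most ribosomal RNA. Without mouse 15 the mD3AKO mice reached 61.0 CPM, with an SD of 7.28 CPM (n = 12) against 3.07 CPM in WT (n = 12). The mD3AKO males ranged from 44.0 to 61.7 CPM (n = 7) and the mD3AKO females from 37.5 to 58.0 CPM (n = 6). At rest the sexes overlapped over these same ranges (n = 4 males and 3 females). After exercise the mD3AKO males (51.5 to 61.0 CPM, n = 3) all lay above the females (44.1 to 48.0 CPM, n = 3). Over both genotypes the difference of males from females was 0.15 (SE 0.0686) on the log2 scale, with an adjusted p of 0.174.

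Within each genotype, *Sim2* at rest and after exercise overlapped. WT mice averaged 31.9 ± 3.45 CPM at rest (SD, n = 5) and 33.0 ± 2.96 CPM after exercise (SD, n = 7), and mD3AKO mice averaged 52.0 ± 9.10 CPM at rest (SD, n = 7) and 51.04 ± 6.25 CPM after exercise (SD, n = 6). Averaged over the genotypes, the effect of exercise was 0.01 (SE 0.0736, adjusted p = 0.965) and the interaction with genotype -0.07 (SE 0.147, adjusted p = 1.00). *Sim1*, the paralog that specifies hypothalamic neurons, ran from 11.3 to 18.5 CPM over all libraries. It had 13.6 ± 1.84 CPM in rested (SD, n = 12) and 15.0 ± 1.84 CPM in exercised mice (SD, n = 13), a log2 difference of 0.16 (SE 0.0705, adjusted p = 0.184). Its difference between genotypes was 0.11 (SE 0.0705), with 13.8 ± 1.61 CPM in WT (SD, n = 12) and 14.8 ± 2.18 CPM in mD3AKO mice (SD, n = 13).

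**Figure D2:**
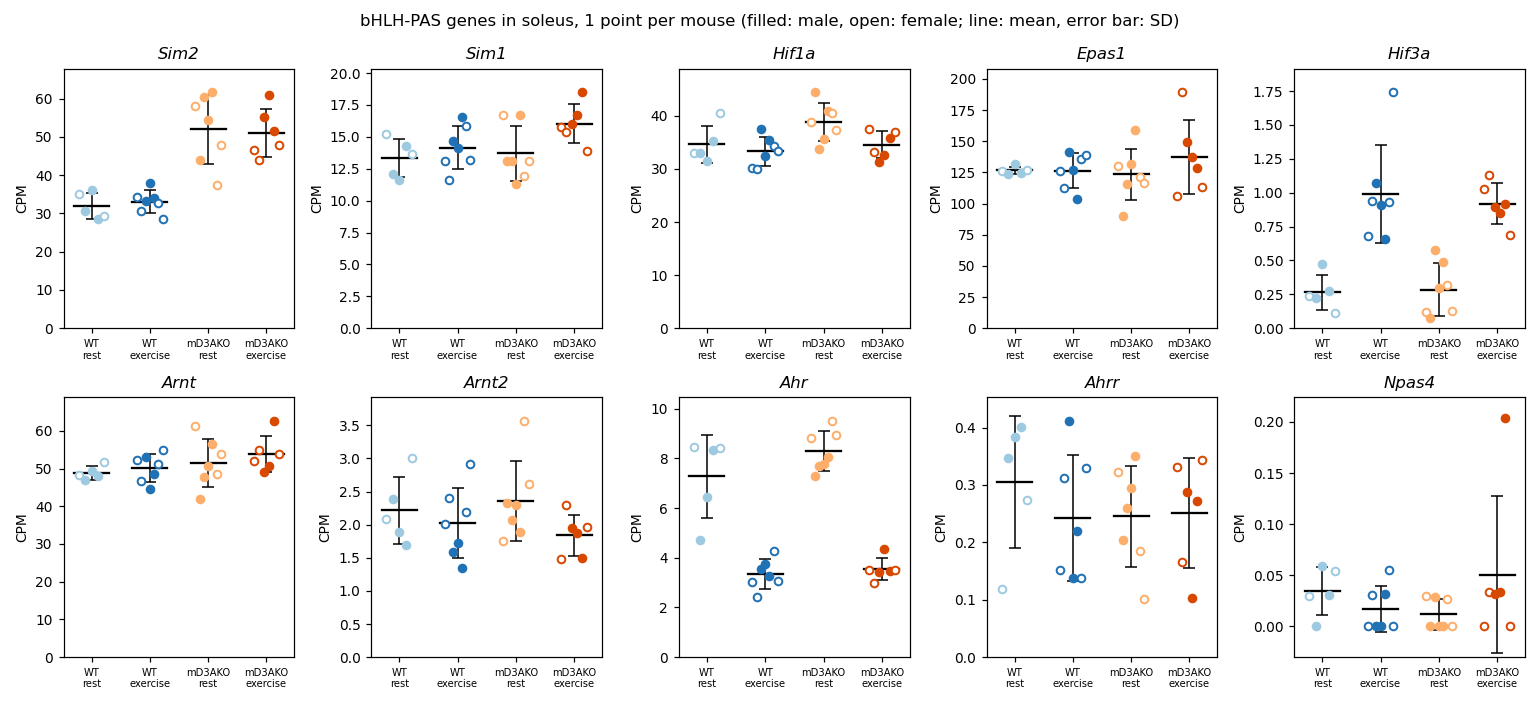
Level in CPM of each of the 10 bHLH-PAS genes in the 4 groups, with 1 point per mouse (filled for males, open for females), the group mean (line) and SD (error bar). *Sim2* is higher in mD3AKO than in WT mice, *Ahr* is lower and *Hif3a* higher after exercise in both genotypes, and the other genes overlap between groups.

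Genes next to *Sim2* on chromosome 16 were looked at for the same contrast of genotypes. Within 500 kb on either side, 12 genes were tested and 0 of them were called with edgeR or DESeq2, with 1 at an unadjusted p under 0.05. Since 0.269% of all tested genes were called, a count of 0 among 12 does not set these genes apart from others. An unadjusted p under 0.05 in this contrast was reached by 1018 of all 16340 genes with edgeR and by 981 with DESeq2. The nearest, *Hlcs* (holocarboxylase synthetase, 2.16 kb beyond the end of *Sim2*), differed by -0.01 (SE 0.0703, adjusted p = 1.00). The others lay between -0.21 (SE 0.215) for *Chaf1b* and 0.18 (SE 0.0628) for *Dop1b*, with adjusted p-values of 0.995 and 0.493. Among the 7 satellite cell markers, *Pax7*, the factor that defines these cells, was higher in mD3AKO mice, by 0.48 (SE 0.105, adjusted p = 0.0384), and the other 6 were not called. The summed level of these markers overlapped between WT (54.2 to 73.3 CPM) and mD3AKO mice (48.8 to 76.0 CPM), and none was at 0 in any group. The authors name *Pax7* as a putative target of DNMT3A, with less methylation at its promoter in mD3AKO muscle. Whether its RNA followed the number of satellite cells was not tested. Of the 8 endothelial markers and the 37 other markers tested (fibroblasts, immune cells, Schwann cells and nerve, adipocytes, slow and fast fibers), 0 were called by genotype with edgeR or DESeq2, with 0 and 1 at an unadjusted p under 0.05. The medians furthest from 0 were -0.68 for the 5 adipocyte markers, whose summed level was 233 to 561 CPM in WT and 197 to 526.5 CPM in mD3AKO mice, and 0.17 for the 6 Schwann and nerve markers, at 34.9 to 320 CPM and 35.7 to 504 CPM. The part of these cells in the level of *Sim2* was not tested.

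**Figure D3:**
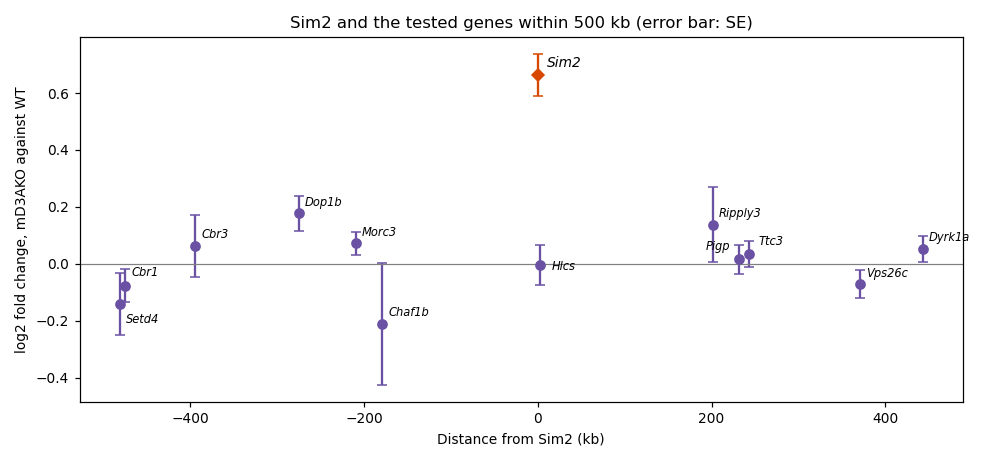
Difference of mD3AKO from WT mice on the log2 scale (error bar, SE) for *Sim2* and the 12 tested genes within 500 kb, by distance from *Sim2* in kb. *Sim2*, chosen for this contrast, stands at 0.66, and the others lie between -0.21 and 0.18, with 0 of 12 called where 0.269% of all tested genes were.

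After exercise, 2 of the 9 tested members passed the test, *Ahr* falling and *Hif3a* rising. Over all 16340 genes, 10.4% were called for exercise, 5.70% higher and 4.69% lower. The median log2 difference was 0.01 over the 9 members and -0.00088 over all tested genes.

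*Ahr* (ENSMUSG00000019256, mm10 chr12:35497974-35535038, reverse strand), the receptor for dioxin-like ligands and tryptophan metabolites, was at 4.72, 6.43, 8.34, 8.44 and 8.47 CPM in the rested WT mice. In the exercised WT mice it ran from 2.41 through a median of 3.26 to 4.28 CPM (n = 7). The rested mD3AKO mice ran from 7.27 through 8.04 to 9.50 CPM (n = 7) and the exercised ones from 2.99 through 3.48 to 4.33 CPM (n = 6). Every exercised mouse lay under every rested mouse, of either genotype.

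Together the rested mice had 7.87 ± 1.28 CPM (SD, n = 12) and the exercised mice 3.43 ± 0.520 CPM (SD, n = 13). *Ahr* fell by 1.18 on the log2 scale (SE 0.0943, adjusted p = 1.19e-09, edgeR), to 0.442 of the rested level. All exercised libraries lay below all rested ones in 0.306% of the tested genes. The fall was 1.12 (SE 0.135) in WT and 1.23 (SE 0.132) in mD3AKO mice, and the interaction was -0.11 (SE 0.188, adjusted p = 1.00). *Ahr* rests on 77 to 360 reads per library.

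*Hif3a* (ENSMUSG00000004328, mm10 chr7:17031507-17062427, reverse strand) encodes the third HIF α subunit, of which some isoforms oppose HIF-1α and HIF-2α. The rested WT mice were at 0.109, 0.220, 0.239, 0.278 and 0.472 CPM. The exercised WT mice ran from 0.658 through a median of 0.934 to 1.74 CPM (n = 7). The mD3AKO mice ran from 0.0766 through 0.295 to 0.575 CPM at rest (n = 7) and from 0.686 through 0.905 to 1.13 CPM after exercise (n = 6). No rested mouse reached the level of any exercised mouse.

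The means were 0.276 ± 0.164 CPM at rest (SD, n = 12) and 0.957 ± 0.277 CPM after exercise (SD, n = 13). *Hif3a* rose by 1.83 on the log2 scale (SE 0.253, adjusted p = 9.83e-06, edgeR), which is 3.56-fold. All exercised libraries lay above all rested ones in 0.765% of the tested genes. The rise was 1.90 (SE 0.370) in WT and 1.76 (SE 0.345) in mD3AKO mice, and the interaction was -0.15 (SE 0.514, adjusted p = 1.00). The gene stayed rare, with 3 to 58 reads per library, so that its size of change carries a large counting error.

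**Figure D4:**
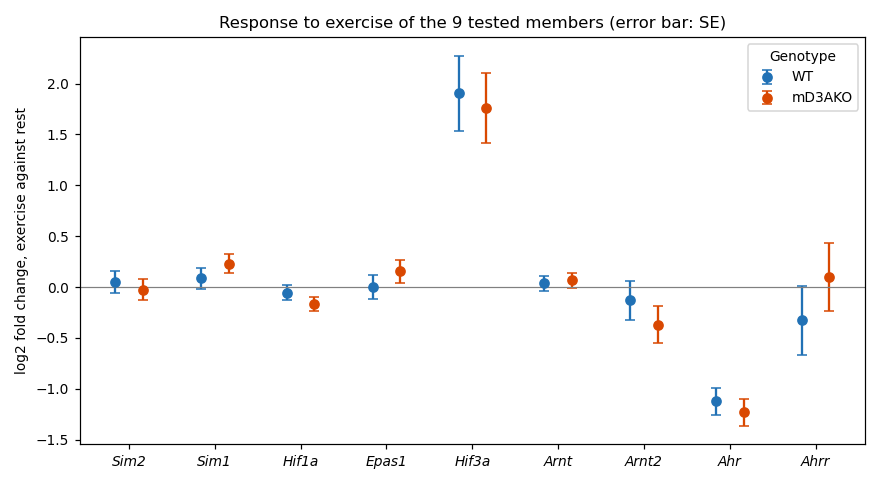
Response to exercise on the log2 scale (error bar, SE) of the 9 tested members in WT and mD3AKO mice. *Ahr* fell by 1.12 and 1.23 and *Hif3a* rose by 1.90 and 1.76, and the other members lie between -0.37 (*Arnt2*, mD3AKO) and 0.23 (*Sim1*, mD3AKO).

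The remaining HIF subunits did not pass the test. *Hif1a* was at 37.1 ± 4.00 CPM at rest (SD, n = 12) and 33.9 ± 2.60 CPM after exercise (SD, n = 13), a log2 difference of -0.11 (SE 0.0508, adjusted p = 0.195). Its highest group was the rested mD3AKO mice, at 38.8 ± 3.57 CPM (SD, n = 7), and all 4 groups overlapped. *Epas1*, the most abundant member and a gene of endothelium as well as muscle, was at 125 ± 15.5 CPM (SD, n = 12) and 131 ± 22.5 CPM (SD, n = 13), a difference of 0.08 (SE 0.0830, adjusted p = 0.690). It varied most among the mD3AKO mice, from 90.4 CPM in a rested male (mouse 7) to 189 CPM in an exercised female (mouse 6).

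The shared partners did not pass either. *Arnt* was at 50.4 ± 5.00 CPM at rest (SD, n = 12) and 51.9 ± 4.47 CPM after exercise (SD, n = 13), a difference of 0.05 (SE 0.0522, adjusted p = 0.670). *Arnt2* was at 2.30 ± 0.547 CPM (SD, n = 12) and 1.94 ± 0.438 CPM (SD, n = 13), a difference of -0.25 (SE 0.132, adjusted p = 0.287). *Ahrr*, which competes with AHR for ARNT, was at 0.270 ± 0.0995 CPM (SD, n = 12) and 0.246 ± 0.0993 CPM (SD, n = 13), a difference of -0.11 (SE 0.240, adjusted p = 0.874). Its 3 to 13 reads per library leave changes of the size of its SE undetectable.

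By genotype, the members other than *Sim2* differed by -0.15 (SE 0.240) for *Ahrr* to 0.14 (SE 0.0942) for *Ahr*. *Hif1a* stood at 0.11 (SE 0.0509), *Arnt* at 0.09 (SE 0.0523), *Epas1* at 0.04 (SE 0.0830), *Arnt2* at -0.02 (SE 0.132) and *Hif3a* at -0.04 (SE 0.257). For each of these the libraries of the genotypes overlapped. In the interaction of genotype and exercise, 0 of 9 members were called with edgeR or DESeq2 and 0 had an unadjusted p under 0.05, against 0.0% of all genes (403 of 16340 had an unadjusted p under 0.05 with edgeR, and DESeq2 called 0 with 386 under 0.05). The members' interactions ran from -0.24 (SE 0.264) for *Arnt2* to 0.42 (SE 0.479) for *Ahrr*.

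Between the sexes, 0 of 9 members passed edgeR's or DESeq2's test, whereas 8.65% of all tested genes passed with edgeR. An unadjusted p under 0.05 was reached by 3899 of the 16340 genes with edgeR, and by 2 of the 9 members, a share no higher. These were *Arnt2*, at 1.89 ± 0.323 CPM in males (SD, n = 13) and 2.36 ± 0.585 CPM in females (SD, n = 12), and *Sim2*. The log2 difference of *Arnt2* was -0.34 (SE 0.116, adjusted p = 0.0691). It passed when any of 3 mice was left out, exercised mD3AKO mouse 3 (adjusted p = 0.0483), rested mD3AKO mouse 2 (adjusted p = 0.0217) or rested WT mouse 1 (adjusted p = 0.0473). Markers of slow fibers were lower in males (6 of 7 called) and those of fast fibers higher (5 of 7 called). Of 7 satellite cell markers, *Chodl* and *Pax7* were called lower in males, with summed levels of 48.8 to 68.7 CPM in males and 56.5 to 76.0 CPM in females. Of 6 markers of Schwann cells and nerve, edgeR called 0 and DESeq2 2, all 6 had an unadjusted p under 0.05 with both tools (3899 of all 16340 genes did with edgeR), and their median log2 difference was -0.79. Their summed level was 34.9 to 224 CPM in males (median 46.4) and 37.4 to 504 CPM in females (median 68.1). No marker was at 0 in either sex, and the part of these cells and fibers in the level of *Arnt2* was not tested.

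The response of *Ahr* was in the same direction in both sexes. Rested females had 8.83 ± 0.432 CPM (SD, n = 5) and exercised females 3.25 ± 0.585 CPM (SD, n = 7). Rested males had 7.18 ± 1.25 CPM (SD, n = 7) and exercised males 3.63 ± 0.380 CPM (SD, n = 6), so that both sexes were separated by exercise. The response of males less that of females was 0.46 (SE 0.176, adjusted p = 1.00), where 0.0551% of all genes were called. For *Hif3a*, females had 0.182 ± 0.0922 CPM at rest (SD, n = 5) and 1.02 ± 0.359 CPM after exercise (SD, n = 7), and males had 0.344 ± 0.175 CPM (SD, n = 7) and 0.884 ± 0.134 CPM (SD, n = 6), a difference of responses of -1.07 (SE 0.515, adjusted p = 1.00). Of the 9 members, 0 passed this test with edgeR or DESeq2, and 2 of them, *Ahr* and *Sim1*, had an unadjusted p under 0.05 with edgeR and 3 with DESeq2, where 546 of the 16340 genes did with edgeR.

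Genes of the AHR pathway were read beside the receptor, and the counts in this and the other lists stand against the 5.70% of all tested genes that rose and the 4.69% that fell. Of 6 tested AHR target genes, 2 rose after exercise and 0 fell, and the median log2 difference over the 6, of which *Ahrr* is one, was 0.73. *Tiparp*, an ADP-ribosyltransferase that restrains AHR, rose from 26.3 ± 6.58 to 65.9 ± 14.6 CPM (SD, n = 12 and 13), by 1.31 (SE 0.131, adjusted p = 5.97e-08). *Cyp1b1*, a cytochrome P450 induced by AHR, rose from 1.33 ± 0.419 to 2.13 ± 0.529 CPM (SD, n = 12 and 13), by 0.71 (SE 0.149, adjusted p = 0.00161). Receptor RNA fell while these 2 targets rose, and the part of AHR in their rise was not tested.

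Of the 4 genes of the AHR chaperone complex, 2 rose (5.70% of all tested genes did). *Hsp90aa1*, an HSP90 isoform, rose from 48.9 ± 7.37 to 101 ± 52.4 CPM (SD, n = 12 and 13), by 1.04 (SE 0.165, adjusted p = 6.72e-05), and *Ptges3*, the co-chaperone p23, rose by 0.15 (SE 0.0485, adjusted p = 0.0448). The median over the 4 was 0.13.

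Of 12 regulators of the HIF proteins, 1 rose and 1 fell, and their median was 0.03. These are shares near those of all tested genes (5.70% and 4.69%), so the counts are no result about the list. *Egln3*, a prolyl hydroxylase that marks HIF α for degradation, rose from 63.2 ± 11.8 to 114 ± 20.3 CPM (SD, n = 12 and 13), by 0.85 (SE 0.102, adjusted p = 1.41e-06). *Cited2*, which competes with HIF-1α for the coactivator p300, fell by 0.83 (SE 0.139, adjusted p = 0.000133), from 29.2 ± 6.71 to 16.3 ± 4.07 CPM (SD, n = 12 and 13).

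Of 25 HIF target genes, 6 rose and 2 fell, with a median of 0.03, where 5.70% and 4.69% of all tested genes did. The largest rise among them was that of *Ddit4*, an inhibitor of mTORC1 that also answers to other stresses and to glucocorticoids, from 9.02 ± 3.69 to 51.8 ± 12.2 CPM (SD, n = 12 and 13), by 2.48 (SE 0.177, adjusted p = 1.35e-10). *Egln3* is also one of the 6, as is *Hk2*, the hexokinase of muscle, which rose by 0.52 (SE 0.0637, adjusted p = 1.60e-06). The 2 that fell were *Ankrd37* (-0.41, SE 0.125, adjusted p = 0.0360) and *Bhlhe40*, a repressor that also belongs to the clock (-0.40, SE 0.0883, adjusted p = 0.00300). Of 8 other tested bHLH-PAS genes, clock factors and nuclear receptor coactivators among them, *Ncoa3* alone was called (0.28, SE 0.0586, adjusted p = 0.00143), against 10.4% of all tested genes, and the median of the list was -0.15.

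**Figure D5:**
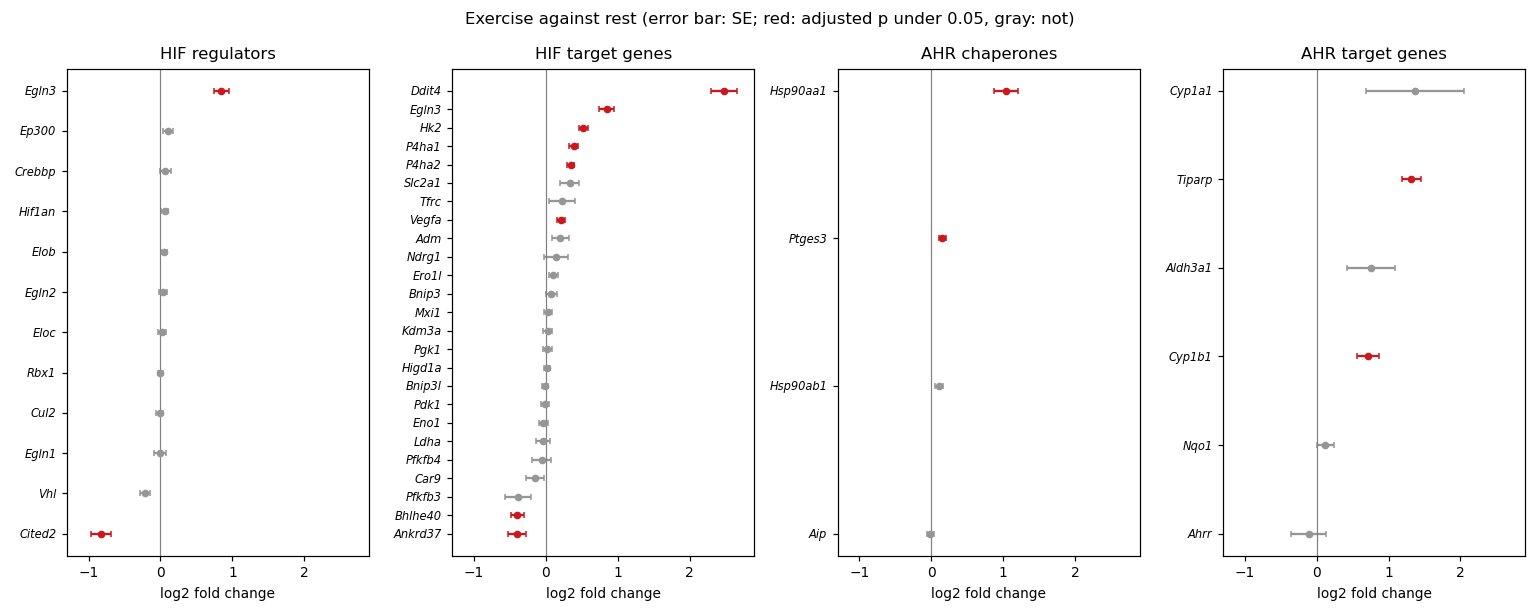
Log2 difference of exercised from rested mice (error bar, SE) for the tested HIF regulators, HIF target genes, AHR chaperones and AHR target genes, red where the adjusted p is under 0.05. *Ddit4*, *Tiparp*, *Hsp90aa1* and *Egln3* rose most among the called genes and *Cited2* fell most.

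By genotype, 0 of the 53 tested genes that these 5 lists hold beside *Ahrr* were called with edgeR or DESeq2, and 4 had an unadjusted p under 0.05 with either tool. Of all 16340 tested genes, edgeR called 0.269%. An unadjusted p under 0.05 was reached by 1018 of them with edgeR and by 981 with DESeq2. In the interaction the count was 0 with both tools as well, with 3 at an unadjusted p under 0.05, where 403 of all 16340 genes were with edgeR.

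Endothelial markers moved with exercise, where 5.70% of all tested genes rose and 4.69% fell. Of 8, 5 fell and 1, the VEGF receptor *Flt1*, rose, and their summed level was 455 to 606 CPM at rest and 422 to 537 CPM after exercise. Of 7 satellite cell markers, *Myf5* and *Pax7* fell, and the ranges of their summed level at rest and after exercise overlapped (highest 76.0 and 73.3 CPM). No marker was at 0 in any group, and of the 37 tested markers of fibroblasts, immune cells, Schwann cells, adipocytes and slow and fast fibers, 0 were called for exercise with edgeR and 1 with DESeq2 (2 at an unadjusted p under 0.05 with each). The 1 called and the 2 at an unadjusted p under 0.05 were fibroblast markers. Of all 16340 genes, edgeR called 10.4% and DESeq2 called 1921. An unadjusted p under 0.05 was reached by 3488 genes with edgeR and by 3491 with DESeq2. The median log2 difference over the 7 fibroblast markers was -0.37, the furthest from 0 of the marker lists. Their summed level was 1132 to 5564 CPM at rest and 1259 to 2992 CPM after exercise. The part of any of these cell types in the levels of *Ahr* and *Hif3a* was not tested.

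Within the 4 groups, each member was set against every tested gene over the 25 libraries, by Pearson's r of log2 CPM after the group mean was taken off. These r describe libraries that share depth and composition and are given without a p. Each of the 4 groups holds both sexes, so differences between males and females stay in these r, and their part was not tested. *Sim2* was most like *Samm50* (r = 0.843), *Ehbp1l1* (0.841), *Kif1c* (0.832), *Fastk* (0.823) and *Sun2* (0.819). *Sim1* was most like *Eif5* (0.846) and *Cyld* (0.825), *Arnt* like *Mypn* (0.810) and *Ranbp10* (0.804), and *Arnt2* like *Sh3pxd2a* (0.880) and *Syne3* (0.848). *Epas1* was most like the endothelial marker *Flt1* (0.818) and *Tns1* (0.816). *Flt1* was the 1 of the 8 endothelial markers that rose after exercise, where 5 fell, and r for the others is not given.

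For the remaining members the highest r were lower. *Hif1a* was most like *Trove2* (0.792) and *Fam84b* (0.741), *Ahr* like *Gm18066* (0.775) and *Gm37953* (0.696), *Hif3a* like *Gm34220* (0.761) and *Card10* (0.696), and *Ahrr* like *Arl8a* (0.708) and *Trim8* (0.679). *Gm18066*, *Gm37953* and *Gm34220* were rare, with means of 0.341, 0.349 and 0.392 CPM, under the 0.5 CPM added before the log. Among the members themselves, the r furthest from 0 were those of *Sim2* with *Arnt2* (-0.601) and of *Sim1* with *Arnt2* (-0.545), and the highest were those of *Sim1* with *Ahr* (0.486) and of *Epas1* with *Hif3a* (0.479).

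Exons of 3 tested members overlap other genes on the opposite strand, and whether the counting used the strand is not given in the sources used here. Over all libraries, *Hif1a* had 28817 reads and shares 330 bases with *Gm15283*, which had 485 reads. *Arnt2* had 1738 reads and shares 214 bases with *Gm30873*, which had 108, and *Ahr* had 4575 reads and shares 127 bases with *Gm48236*, which had 18. On the same strand *Hif1a* shares 148 bases with *Gm49321*, which had 0 reads. Between the transcripts of different members, 3 words of 31 bases were shared.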

How the data were processed

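The authors depleted ribosomal RNA, made strand-specific libraries, and deposited raw read counts per gene and library on the genes of GENCODE M15 (mm10). The submitters' processing notes name FastQC 0.11.5, STAR 2.5.3a and featureCounts 1.5.3. The 10 members and all gene lists were chosen with earlier results of these data known, so adjusted p-values describe these mice and are not independent evidence. Symbols came from GENCODE (52403 of 52636 genes), and 0 columns belonged to other samples.

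Counts were tested with edgeR 4.0.16 (limma 3.58.1, R 4.3.3): TMM, filterByExpr with the 4 groups (minimum count 10, minimum total 15), 1 mean per group and the quasi-likelihood F test, adjusted by Benjamini-Hochberg over 16340 genes, with calls at an adjusted p under 0.05. The main effects of exercise and genotype averaged the other factor with equal weights, and sex was tested with 8 groups. SE is the log2 difference over the square root of F. The code was tested on simulated data. CPM used TMM library sizes, and likeness used log2(CPM + 0.5).

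All members were described. Of each list up to 3 called genes were named by size of change, with likeness for the nearest 5 genes of *Sim2* and 2 of each other tested member, and the tested genes within 500 kb of *Sim2*. Genes named beyond this (*Bhlhe40*, *Ankrd37*, *Flt1*, *Myf5*, *Pax7*, *Chodl*) were chosen after their values were seen. Alternatives were DESeq2 1.42.0, RLE, no filter, sex as a term, each sex alone, and each of the 25 mice left out. The authors' other assays were not analysed here.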

Additional observations from a re-analysis of the deposited data

Results flagged for a closer look

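*Hif3a* in 1 exercised WT female, mouse 25, stood at 1.74 CPM (58 reads), far above the next of the 7 mice of its group (1.08 CPM) when set against the range of the group, whose lowest mouse was at 0.658 CPM. Of 36 sets of values checked in this way it was the one that stood out, and chance flags about 1 in 20. Without mouse 25, the rise of *Hif3a* with exercise was 1.74 (SE 0.244, adjusted p = 1.63e-05, edgeR) on the log2 scale.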

How the results depend on the processing

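The fall of *Ahr* and the rise of *Hif3a* were called in all 6 alternative settings and in all 25 fits that left out 1 mouse, and no other member was called for exercise in any of them. For *Ahr* the log2 differences were -1.43 to -0.97 over the settings and -1.24 to -1.14 over the mice left out. For *Hif3a* they were 1.39 to 2.46 and 1.73 to 2.00. The log2 difference of *Sim2* between genotypes was 0.56 to 0.73 over the settings and 0.64 to 0.70 over the mice left out. No member was called for the interaction in any setting. The members called between the sexes numbered 0 to 1 over the mice left out, the 1 being *Arnt2*.

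Some differences changed sign, not all of them near 0, and the cause was not tested. In females alone the effect of exercise was -0.00012 for *Sim1*, -0.045 for *Sim2*, -0.0011 for *Arnt* and 0.36 for *Ahrr*, and the interaction was 0.087 for *Hif1a* and -0.057 for *Arnt*. In males alone the interaction of *Arnt2* was 0.073, against -0.24 over both sexes. The sex difference of *Epas1* was 0.0073 with DESeq2, 0.0071 with RLE and 0.0093 with no filter. Over the mice left out, the effect of exercise on *Sim2* was -0.021 to 0.037, the interaction was -0.47 to 0.18 for *Hif3a*, -0.021 to 0.078 for *Arnt* and -0.18 to 0.014 for *Ahr*, and the sex difference was -0.066 to 0.0068 for *Hif1a* and -0.041 to 0.076 for *Epas1*. By genotype, where no test was made, the log2 differences over the mice left out were -0.084 to 0.047 for *Arnt2*, -0.21 to 0.12 for *Hif3a* and -0.018 to 0.072 for *Epas1*. Over the settings they were -0.14 to 0.15 for *Arnt2*, -0.045 to 0.034 for *Hif3a* and -0.35 to 0.13 for *Ahrr*. Other differences kept their sign over the mice left out but moved. The effect of exercise was 0.016 to 0.11 for *Epas1*, 0.0225 to 0.071 for *Arnt* and -0.21 to -0.039 for *Ahrr*. The difference between genotypes was 0.075 to 0.17 for *Ahr* and -0.25 to -0.067 for *Ahrr*. No paired analysis was possible because each mouse has a number of its own. *Hif3a*, *Ahrr* and *Npas4* rest on few reads.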
